A study of Mus musculus with 8 samples.

Results

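Imprinted genes of the fetal growth network were examined in murine articular chondrocytes exposed to IL-1β, namely H19, Igf2, Dlk1, Meg3, Cdkn1c, Peg3, Plagl1, Mest, Grb10 and Ndn. They are 10 of the 54658 gene symbols in the count table and were picked by name. H19 was picked because its count fell strongly under IL-1β, so its own difference is described here without a test. The other 9 were picked as imprinted growth genes, with earlier results of the same data already known.

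An imprinted gene is transcribed mainly from the copy inherited from 1 parent, according to DNA methylation set in the egg or the sperm. Many such genes lie in clusters that share a control region, and many act on growth before birth. Igf2 is a growth factor made from the paternal copy, and its neighbour H19 is a long noncoding RNA made from the maternal copy. Both are abundant in fetal mesenchyme, including cartilage, and fall after birth in most tissues. Reads were not assigned to a parental copy, so all values below are sums over both copies. The parental copy named for a gene is the one known from at least some tissues. Whether it holds in these chondrocytes was not tested.

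The series compared primary chondrocytes isolated at the femoral head of mice aged 3 weeks, after 24 h with 1 ng/mL IL-1β (n = 4) or with vehicle (n = 4). IL-1β is an inflammatory cytokine of the arthritic joint, and the comparison asks how the chondrocyte transcriptome responds to it. The labels name no genotype, transgene or deletion for either group, and the study's methods describe the cells as wild type. The cells were grown as a plated culture, and the methods do not state whether the medium during this treatment held serum. Nothing in the sources says whether replicates came from separate mice or cultures, so the p-values measure the spread between these samples, which may be technical. Total counts ran from 10992355 to 17104351 in the IL-1β samples and from 13970959 to 17456063 in the vehicle samples. These were bulk libraries, in which fewer cells of a type and less RNA per cell cannot be told apart.

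The chondrocyte label was met by its defining genes, at different levels in the groups. The summed level of 10 chondrocyte markers, among them Col2a1 (type II collagen) and Acan (aggrecan), was 16600 to 17300 CPM (read counts scaled to library size with TMM factors) in vehicle samples and 4310 to 4720 CPM in IL-1β samples. All 10 were tested and all 10 were lower by more than 1 on the log2 scale with an adjusted p under 0.05. This fall of the chondrocyte markers moved with every difference given below, and its part in them was not tested. Of the other cell types, 8 leukocyte markers summed to 11.3 to 12.0 CPM in vehicle and 14.6 to 18.4 CPM in IL-1β samples. Cd52 was at 0 throughout. Most of these sums came from Cd68, with means of 9.48 CPM in vehicle and 14.99 CPM in IL-1β samples. Cd68, the one member of that list abundant enough to test, rose by 0.67 on the log2 scale (edgeR, adjusted p = 8.49e-07). Laptm5, too low to test, went the other way without overlap, from a mean of 1.17 CPM in vehicle to 0.42 CPM in IL-1β samples. Markers of osteoblasts (5 genes) went from 84.3 to 95.4 CPM in vehicle to 26.3 to 32.4 CPM in IL-1β samples. Fibroblast markers (6 genes) lay at 141 to 149 CPM in vehicle and 146 to 161 CPM in IL-1β samples in sum, within which Pdpn rose by 2.26 on the log2 scale (adjusted p = 4.85e-19) and Col3a1 fell by 0.34 (adjusted p = 7.01e-07). Markers of endothelium, red cells, muscle and fat each summed to less than 2 CPM in every sample.

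Of the 10 loci, 4 also carry microRNAs, short RNAs that bind targets through bases 2 to 8, the seed. The mature sequences of H19 and Igf2 are shown because the RNAs of these 2 genes fell the most, with the seed in capitals, 5′ to 3′, from RefSeq (GRCm38.p6).
mmu-miR-675-5p: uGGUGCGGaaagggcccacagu
mmu-miR-675-3p: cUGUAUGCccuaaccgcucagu
mmu-miR-483-5p: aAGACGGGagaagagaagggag
mmu-miR-483-3p: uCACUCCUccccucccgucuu
The miR-675 pair lies in an exon of H19 on the minus strand, at chr7:142577112-142577133 and chr7:142577078-142577099, so the spliced transcript holds the hairpin. The miR-483 pair lies in an intron of Igf2, at chr7:142654968-142654989 and chr7:142654932-142654952. Mest carries miR-335 in an intron, and Meg3 carries miR-770 and miR-1906 in exons. The 9 mature sequences of the 4 hosts have 9 different seeds. The table counts transcripts of genes, and the mature microRNAs were not measured in it.

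H19 fell to a small fraction of its vehicle level. This long noncoding RNA is transcribed from chr7:142575529-142578143 on the minus strand (mm10; ENSMUSG00000000031.16, annotated as a lincRNA). Its read counts in vehicle replicates 1 to 4 were 10366, 10630, 8622 and 9823, and in IL-1β replicates 1 to 4 they were 378, 603, 783 and 665. Scaled to depth, these were 598.0, 614.1, 614.9 and 645.6 CPM in vehicle and 34.1, 43.5, 46.5 and 47.2 CPM under IL-1β. The lowest vehicle sample thus stood far above the highest IL-1β sample, and IL-1β replicate 1 was the lowest of its group. The means were 618.1 ± 19.9 and 42.8 ± 6.0 CPM (SD, n = 4), a log2 fold change of −3.84 ± 0.06 (SE), with 6.92% of the vehicle level remaining. H19 RNA made up 0.0604% to 0.0646% of all counts in vehicle samples and 0.00344% to 0.00468% under IL-1β. In mean vehicle CPM 143 of the 14404 genes tested stood above it, and under IL-1β 4143 did. A lower fitted log2 fold change than that of H19 was found for 1 of the 14404 genes tested.

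Igf2 fell too, with a smaller fold change than H19 and a larger one than the remaining members. It lies 72.6 kb from H19 at chr7:142650766-142666816 on the minus strand, with the enhancers and the methylated control region shared by the 2 genes nearby. The vehicle samples held 149.0, 149.3, 139.4 and 142.5 CPM, and the IL-1β samples 38.8, 37.4, 47.2 and 42.1 CPM. No IL-1β sample came near the vehicle range. The log2 fold change was −1.80 ± 0.05 (SE; edgeR's quasi-likelihood test, adjusted p = 2.53e-22), which left 28.5% of the vehicle level. Among all genes tested, 85 had a lower log2 fold change. Of the exon bases of Igf2, 64.5% are shared with another annotated gene, mostly Gm49394 on the same strand, which was at 0 in all samples; how reads in shared exons were assigned is not given in the sources used here. The antisense noncoding gene Igf2os was counted 18 to 47 times per IL-1β sample and 42 to 72 times per vehicle sample, with a log2 fold change of −0.77 ± 0.18 (adjusted p = 0.00123). Because 23.2% of its exon bases are shared and the use of strand in counting is not stated, reads of the 2 genes may not be fully separate.

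**Figure D1:**
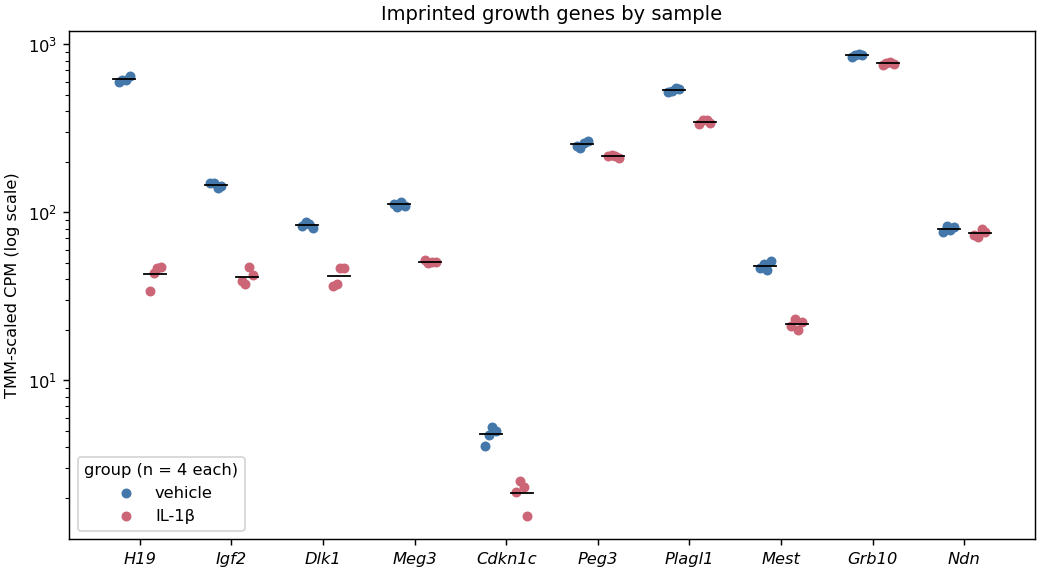
TMM-scaled CPM of the 10 imprinted growth genes (log scale) in each of 4 vehicle samples (blue) and 4 IL-1β samples (red); each point is a sample and each bar a group mean. The IL-1β points lie below all vehicle points for 9 genes, from 34.1 to 47.2 against 598.0 to 645.6 CPM for H19 to a narrow gap for Grb10, and overlap for Ndn. The 9 include H19, which was picked for its fall. Among all genes tested, 18.2% had all IL-1β samples below all vehicle samples.

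Of the 9 genes other than H19, 8 fell at an adjusted p under 0.05, a call that 19.8% of all genes tested met in this direction. The exception was Ndn. With the further condition of a log2 fold change beyond 1, called here a differentially expressed gene (DEG) after the 2-fold limit in the study's methods, 4 of the 9 were called (Igf2, Mest, Cdkn1c and Meg3), against 2.35% of all genes tested. The study's results apply a stricter limit, a log2 fold change of 2, which none of these 9 reached. The 4 IL-1β samples lay below the 4 vehicle samples in 8 of the 9, as they did in 18.2% of all genes tested. None of the 9 rose, where 20.4% of all genes tested did and 2.86% were DEGs with higher levels. The median log2 fold change was −0.996 over the 9 genes, −1.06 with H19 included, and −0.0012 over all genes tested. Since the genes were gathered around a known fall and with earlier results in view, these shares describe the list and carry no test of it. All 10 passed the filter on low counts, and their vehicle levels alone would have sufficed for that.

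The members of the Dlk1-Dio3 cluster on chromosome 12 fell together. Dlk1, a paternally expressed transmembrane protein of the Delta family that restrains differentiation of precursor cells, lies at chr12:109452823-109463336. Its levels were 82.6, 87.3, 84.7 and 80.8 CPM in vehicle and 36.3, 37.7, 46.5 and 46.5 CPM in IL-1β samples. The 2 groups were far apart, with IL-1β replicates 3 and 4 above replicates 1 and 2. Its log2 fold change of −0.996 ± 0.057 (adjusted p = 1.21e-14) lay just short of the DEG threshold. It passed that threshold with DESeq2 (−1.003), total library size (−1.001), no filter on low counts (−1.001) and the replicate number as a block (−1.005). It also passed without IL-1β replicates 3 (−1.055) or 4 (−1.046) or vehicle replicates 1 (−1.005) or 4 (−1.013). Meg3, a maternally expressed long noncoding RNA, starts 77.7 kb downstream of Dlk1 and spans chr12:109541001-109571726. It stood at 112.6, 108.2, 114.9 and 109.6 CPM in vehicle and at 51.7, 50.1, 50.7 and 50.6 CPM in IL-1β samples. The IL-1β values of Meg3 were the tightest of any member, with a coefficient of variation of 1.32%, against 13.2% for Dlk1 and 14.1% for H19 in the same samples. For Meg3 the log2 fold change was −1.13 ± 0.04 (adjusted p = 3.08e-20).

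The other genes tested in that cluster moved in the same direction, so that all 5 were lower, against 19.8% of all genes tested. Dlk1 and Meg3 were picked with earlier results known, so this count is a description. Rian, a noncoding RNA that hosts small nucleolar RNAs, fell from 78.6 ± 2.2 to 39.3 ± 2.8 CPM (SD, n = 4; log2 fold change −0.99, adjusted p = 6.98e-17). Mirg, a noncoding host of microRNAs, fell by 0.71 on the log2 scale (adjusted p = 4.07e-08), and Rtl1, the paternally expressed retrotransposon-derived gene, fell by 0.63 (adjusted p = 8.47e-07). Rian, Mirg and Meg3 come from the maternal copy and Dlk1 and Rtl1 from the paternal copy. Of the exon bases of Rtl1, 8.12% face genes annotated on the other strand. The use of strand in counting is not stated, so its reads may include RNA of that strand. Dio3, the deiodinase gene at the far end, did not pass the filter, with 86 counts over all samples.

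Cdkn1c, which encodes a cyclin-dependent kinase inhibitor that takes growth plate chondrocytes out of the cell cycle, was the rarest of the 10. It was counted 70, 82, 74 and 76 times in vehicle and 24, 35, 39 and 22 times in IL-1β samples, or 4.04, 4.74, 5.28 and 4.995 CPM against 2.16, 2.52, 2.32 and 1.56 CPM. The groups did not overlap, but the spread was wide, with coefficients of variation of 11.1% and 19.4%. The log2 fold change was −1.14 ± 0.17 (adjusted p = 1.74e-06). It was no DEG when tested against a fold threshold itself with glmTreat. The gene lies at chr7:143458339-143461050, 792 kb from Igf2 in the neighbouring Kcnq1 cluster, and 30.7% of its exon bases face the antisense gene Gm44732, which had no counts.

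In the Kcnq1 cluster 9 genes were tested, of which 3 fell, 3 rose and 3 did not pass the test. With 33.3% in each direction, against 19.8% lower and 20.4% higher of all genes tested, a cluster of 9 genes shows no common direction. Phlda2, a limiter of placental growth, fell by 0.66 on the log2 scale (adjusted p = 2.45e-04), and Tssc4 fell by 0.27 (adjusted p = 0.00666). Ascl2, a transcription factor of the trophoblast, rose from 0.64 ± 0.29 to 3.46 ± 0.74 CPM (SD, n = 4; log2 fold change 2.43, adjusted p = 5.3e-09), on 4 to 15 counts per vehicle sample and 32 to 66 per IL-1β sample. Every vehicle sample held less than 1 CPM of Ascl2, so it passed the filter only through the IL-1β samples. Its rise, and its place among the 3 that rose, are therefore descriptions. Osbpl5 and Cd81 rose by 0.17 (adjusted p = 0.0018) and 0.14 (adjusted p = 0.00152). Kcnq1ot1, the paternal noncoding RNA that silences the cluster in cis, was at 206.5 ± 20.6 CPM in vehicle and 202.8 ± 32.0 CPM in IL-1β samples, with a log2 fold change of −0.03 ± 0.07 (adjusted p = 0.775). Slc22a18 (0.53, adjusted p = 0.137) and Tspan32 (−0.72, adjusted p = 0.0723) were near the filter on low counts.

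Mest, a paternally expressed gene of the alpha/beta hydrolase family at chr6:30723547-30748465, fell to 45.0% of its vehicle level. It was measured at 46.6, 48.9, 45.4 and 51.5 CPM in vehicle and at 21.2, 23.3, 19.8 and 22.2 CPM in IL-1β samples. Its log2 fold change of −1.16 ± 0.06 (adjusted p = 2.79e-16) was close to those of Meg3 and Cdkn1c. Copg2, a coat protein gene that runs against Mest and shares 23.1% of the exon bases of Mest, fell by 0.14 on the log2 scale (adjusted p = 0.00645).

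Plagl1, a paternally expressed zinc finger transcription factor known to act on other imprinted genes, among them Igf2, H19 and Cdkn1c, fell to 64.8% of its vehicle level. The gene lies at chr10:13060504-13131694. Vehicle samples held 516.7, 524.9, 546.8 and 541.5 CPM and IL-1β samples 335.4, 351.8, 354.8 and 338.8 CPM. Each group was narrow, with coefficients of variation of 2.64% and 2.76%, and the gap between them was wide. This gave a log2 fold change of −0.62 ± 0.03 (adjusted p = 8.27e-16).

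Peg3 and Grb10 fell by small amounts that the replicates resolved. Peg3, a paternally expressed zinc finger protein at chr7:6703892-6730431, stood at 246.4, 242.8, 258.8 and 264.3 CPM in vehicle and at 216.1, 219.7, 215.5 and 209.2 CPM in IL-1β samples (log2 fold change −0.23 ± 0.03, adjusted p = 1.17e-06). Grb10, an adaptor that dampens signalling from the insulin and IGF receptors and is maternally expressed in most tissues, lies at chr11:11930508-12038683. It held 840.7, 862.4, 870.7 and 863.6 CPM in vehicle and 755.6, 773.1, 786.6 and 761.4 CPM in IL-1β samples (log2 fold change −0.16 ± 0.03, adjusted p = 3.44e-05). Neither gene overlapped between the groups, and the level that remained was 85.0% for Peg3 and 89.5% for Grb10.

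Ndn, the paternally expressed necdin gene of the Prader-Willi region at chr7:62346569-62350262, was the one member that did not pass the test. Its levels were 76.0, 82.7, 78.6 and 81.8 CPM in vehicle and 72.9, 70.8, 79.0 and 76.6 CPM in IL-1β samples, and the groups overlapped. The log2 fold change was −0.09 ± 0.04 (adjusted p = 0.0898). It passed when IL-1β replicate 3 was left out (−0.12, adjusted p = 0.0333) or vehicle replicate 1 (−0.12, adjusted p = 0.0374).

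**Figure D2:**
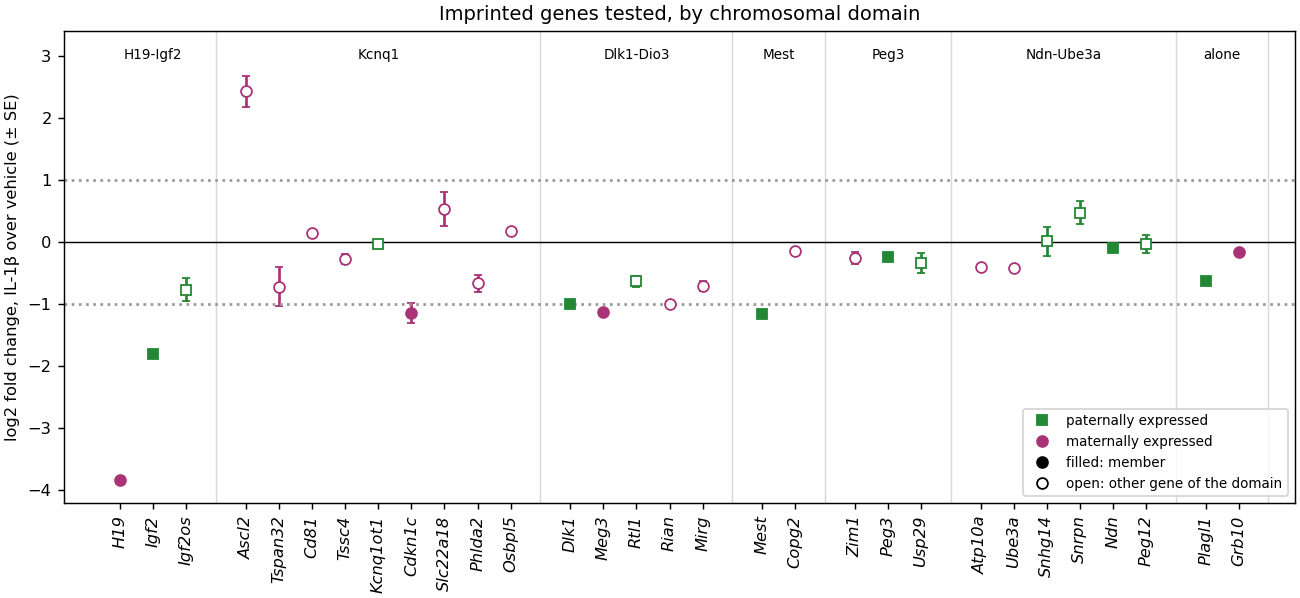
Log2 fold change (IL-1β over vehicle, ± SE, 4 samples per group) of every imprinted gene tested in the chromosomal clusters of the 10 growth genes, with paternally expressed genes as green squares, maternally expressed genes as purple circles, the 10 genes filled and their neighbours open; dotted lines mark a log2 fold change of 1 in either direction. All 3 genes of the H19-Igf2 cluster and all 5 of the Dlk1-Dio3 cluster lie below 0, where the median over all genes tested was −0.0012. H19 was picked for its fall and the other filled genes with earlier results known, so these counts are descriptions. Reads of Igf2 and Igf2os may not be fully separate. The Kcnq1 cluster runs from −1.14 for Cdkn1c to 2.43 for Ascl2. The parental copy shown is the one known from at least some tissues and was not measured here.

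Imprinted genes outside the list showed no shared direction. Of 55 further imprinted genes, 40 passed the filter, and of these 13 fell, 11 rose and 16 did not pass the test, with a median log2 fold change of −0.01. The shares, 32.5% lower against 19.8% of all genes tested and 27.5% higher against 20.4%, describe a list that was also drawn up with results known. Of the 21 tested that are known as maternally expressed in at least some tissues, 8 fell and 7 rose. Of the 19 paternally expressed, Peg10, Slc38a4, Igf2os, Rtl1 and Zrsr1 fell and Snrpn, Sfmbt2, Impact and Inpp5f rose. The call of Zrsr1 (−0.24, adjusted p = 0.0173) was lost without IL-1β replicate 3 (adjusted p = 0.105) or vehicle replicate 2 (adjusted p = 0.0661), and that of Inpp5f (0.24, adjusted p = 0.0143) without IL-1β replicate 2 (adjusted p = 0.0688). Besides Rian, Igf2os, Mirg and Phlda2, the largest falls were those of Peg10 (−0.88 ± 0.08, adjusted p = 8.1e-10), a retrotransposon-derived gene needed for the placenta, and of Slc38a4 (−0.78 ± 0.12, adjusted p = 2.78e-06), an amino acid transporter. Besides Ascl2, the largest rise was that of Dcn, the matrix proteoglycan decorin, which went from 263.8 ± 10.5 to 755.3 ± 4.1 CPM (SD, n = 4; log2 fold change 1.52, adjusted p = 6.32e-25). Asb4 (0.85, adjusted p = 1.64e-08), Sfmbt2 (0.40, adjusted p = 8.51e-04) and Impact (0.28, adjusted p = 1.09e-06) also rose. Ascl2 and Dcn were the 2 DEGs among the 40, both higher, but Ascl2 passed the filter only through its IL-1β samples.

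Neighbours of Peg3 and Ndn gave small values. In the Peg3 cluster Zim1 fell by 0.26 on the log2 scale (adjusted p = 0.028), and Usp29 had −0.34 ± 0.16 (adjusted p = 0.0862). In the Ndn-Ube3a cluster the maternally expressed Ube3a, a ubiquitin ligase, and Atp10a, a lipid transporter, fell by 0.42 (adjusted p = 3.16e-09) and 0.40 (adjusted p = 1.27e-10). Snrpn, a splicing protein from the paternal copy, rose by 0.48 on 28 to 42 counts per sample (adjusted p = 0.0442), and Peg12 (−0.03, adjusted p = 0.894) and Snhg14 (0.01, adjusted p = 0.972) did not pass. The call of Zim1 was lost with DESeq2 (adjusted p = 0.0653) and without IL-1β replicates 3 or 4 or vehicle replicates 1 or 3 (adjusted p up to 0.0875). The call of Snrpn was lost with DESeq2 (adjusted p = 0.112), with no filter on low counts (adjusted p = 0.094), with the replicate number as a block (adjusted p = 0.0674) and without IL-1β replicates 1, 2 or 3 or vehicle replicates 1 or 2 (adjusted p up to 0.141).

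Ratios within a sample do not depend on the scaling between samples, and they asked whether a member moved with a partner known to be expressed, in at least some tissues, from the opposite parental copy, or with its receptor. Of 6 log2 ratios of read counts, 4 differed without overlap. In a two-sided exact permutation test each gave p = 0.0286, the smallest that 4 against 4 samples allow. The adjusted p over the 6 was 0.0429. The ratios reuse the counts already tested gene by gene, in which Mest, Cdkn1c and Igf2 fell without overlap. For these genes they restate that fall beside a partner that changed less, and are no separate support. Mest went from 0.992 to 0.494 reads per Copg2 read (difference in log2 ratio −1.005), and Cdkn1c from 0.0232 to 0.0107 reads per Kcnq1ot1 read (difference −1.12). Igf2 went from 0.435 to 0.123 reads per read of Igf2r (difference −1.82), the maternally expressed receptor that clears IGF2 protein, whose own log2 fold change was 0.01 ± 0.03 (adjusted p = 0.81). The ratio of Ndn to Ube3a went the other way, from 1.13 to 1.41 reads per read (difference 0.32). In that pair Ube3a fell (log2 fold change −0.42), while Ndn did not pass the test (−0.09).

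The 2 remaining ratios did not pass. Meg3 to Dlk1 had log2 ratios of 0.446, 0.310, 0.439 and 0.441 in vehicle and of 0.510, 0.413, 0.124 and 0.124 in IL-1β samples (difference −0.12, exact p = 0.343, adjusted p = 0.412). IL-1β replicates 1 and 2 thus lay within or above the vehicle range and replicates 3 and 4 below it. Peg3 to Zim1 had 21.9 and 22.2 reads per read (difference 0.02, exact p = 0.657). As a description, H19 went from 4.26 to 1.03 reads per Igf2 read, a difference in log2 ratio of −2.05, with 2.00 to 2.18 in vehicle and −0.19 to 0.22 in IL-1β samples.

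**Figure D3:**
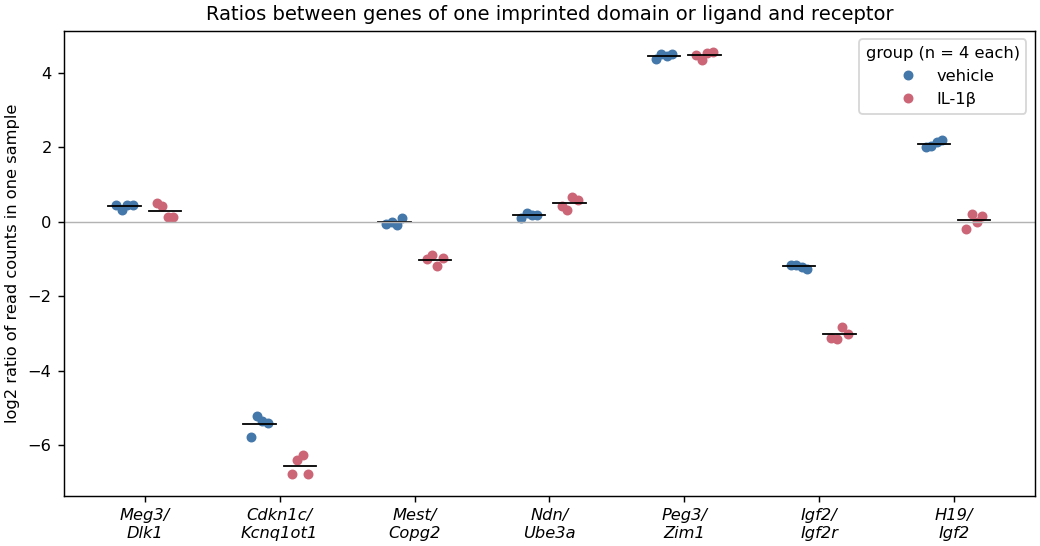
Log2 ratio of the read counts of 2 genes within each sample, for 4 vehicle samples (blue) and 4 IL-1β samples (red), with bars at the group means. The groups separate for Cdkn1c/Kcnq1ot1, Mest/Copg2, Ndn/Ube3a, Igf2/Igf2r and H19/Igf2, and overlap for Meg3/Dlk1 and Peg3/Zim1.

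Levels could be compared between genes after division by gene length (TPM, counts per exon base scaled to a fixed sum, from the counts and the deposited exon lengths). In vehicle samples H19 led the 10 genes by level, at 702.8 ± 5.0 TPM (SD, n = 4), and provided 48.4% to 49.6% of their summed TPM. Grb10 (264.6 ± 6.7 TPM) and Plagl1 (190.5 ± 5.0 TPM) followed, then Igf2 (71.0 ± 3.6), Ndn (60.4 ± 1.9), Peg3 (53.1 ± 1.5), Dlk1 (41.5 ± 2.2), Mest (34.1 ± 1.2), Meg3 (17.2 ± 0.8) and Cdkn1c (6.53 ± 0.68 TPM). No neighbours in that order overlapped over the 4 samples.

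Under IL-1β Grb10 led the order of levels at 229.3 ± 5.4 TPM, and Plagl1 (119.6 ± 3.6 TPM) and Ndn (54.8 ± 1.7 TPM) came next. H19 was the fourth at 47.0 ± 5.5 TPM and overlapped Peg3 (43.8 ± 1.9 TPM), and Dlk1 (19.9 ± 2.1 TPM) overlapped Igf2 (19.6 ± 1.6 TPM). Mest (14.9 ± 1.2), Meg3 (7.61 ± 0.30) and Cdkn1c (2.85 ± 0.58 TPM) closed the order. H19 then gave 6.98% to 9.24% of the summed level, which had gone from 1422 to 1459 TPM in vehicle to 549.5 to 565.9 TPM in IL-1β samples. With the exon bases that no other annotated gene shares as the length, Igf2 stood at 200.2 ± 10.3 TPM in vehicle, overlapping Plagl1, and at 55.2 ± 4.5 TPM under IL-1β, so that its place in the order depends on how shared exons were counted. Mest, at 44.3 ± 1.5 TPM on that scale, overlapped Dlk1 in vehicle samples.

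**Figure D4:**
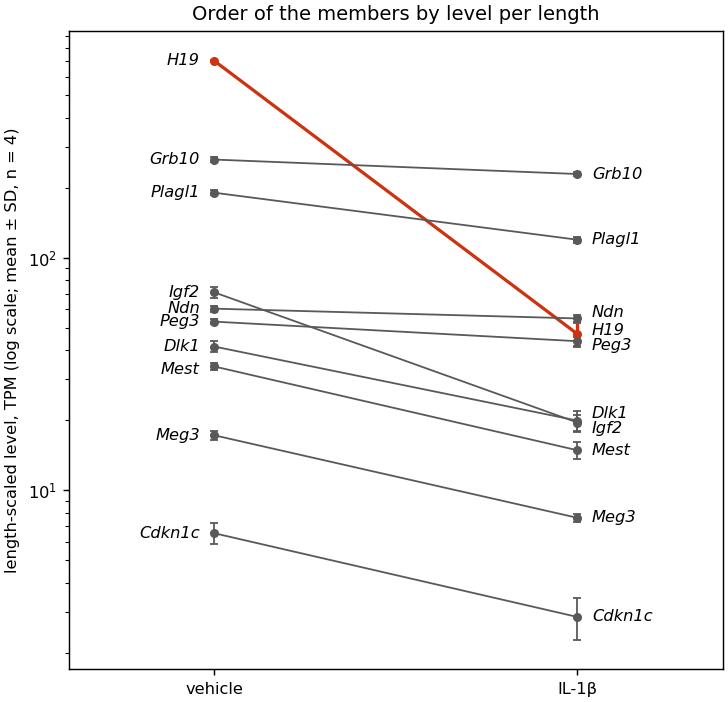
Mean length-scaled level (TPM, log scale, ± SD over 4 samples) of the 10 genes in vehicle and IL-1β samples, joined by lines, with H19 in red. H19 goes from the highest place at 702.8 TPM to the fourth at 47.0 TPM, while Grb10, Plagl1 and Ndn keep their order among themselves.

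The genes whose profile over the 8 samples was nearest to that of H19 were Ppp1r1b, Smoc2, Pgm5, Col27a1 and Gdf10, by Euclidean distance between log2(CPM + 1) values centred on each gene's mean. Their distances were 0.855 to 1.29, against a median of 5.44 over all other genes tested and 2.91 for Igf2. Their log2 fold changes were −3.80 to −2.97. Nearest to Igf2 were Pth1r, the receptor for parathyroid hormone and its related peptide, Lmcd1, Ogn, a small matrix proteoglycan, Arsi and Snorc, a proteoglycan of cartilage, at distances of 0.219 to 0.284 (median of all others 2.56). Among the 10 growth genes Meg3 was the nearest to Igf2 (0.994) and H19 the farthest (2.91). With 2 groups of samples such distances mostly rank genes by the size of their change.

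Other parts of the IGF system changed less than Igf2 itself. Of 20 listed receptors, adaptors, binding proteins and proteases, 16 were tested, 9 fell (56.2%, against 19.8% of all genes tested) and 4 rose (25.0%, against 20.4%), and no DEG was among them. Pappa, the protease that releases IGF from its binding proteins, had the strongest fall on the list, a log2 fold change of −0.84 ± 0.03 (adjusted p = 1.28e-18), Igfbp4, the most abundant by CPM, fell by 0.18 (adjusted p = 4.3e-04), and the receptor Igf1r was higher by 0.10 (adjusted p = 0.013; 0.0524 without vehicle replicate 1). The 4 that rose were Igf1r, Irs2 (0.14), Igf2bp1 (0.51) and Igfbp7 (0.70).

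Genes that read or maintain imprints changed by small amounts. Of 17 listed, 16 were tested, with log2 fold changes from −0.34 to 0.47. Of these 5 fell (31.2%, against 19.8% of all genes tested) and 1 rose (6.25%, against 20.4%). Those that fell were Tet3 (−0.11), Dnmt3a (−0.13), Smchd1 (−0.16), Arid4a (−0.17) and Zfp57 (−0.34), and Tet1, an enzyme that oxidises methylated cytosine, rose by 0.47 (adjusted p = 3.38e-04). Ctcf, which binds the unmethylated control region between H19 and Igf2 and was chosen after its values were seen, stood at 75.7 ± 3.6 CPM in vehicle and 76.0 ± 3.0 CPM in IL-1β samples (SD, n = 4; adjusted p = 0.968). The sign of that difference turned with the scaling to total counts. The call of Zfp57 was lost with DESeq2 (adjusted p = 0.0721) and without IL-1β replicates 1 or 4 or vehicle replicates 1, 2 or 3 (adjusted p up to 0.135), and that of Dnmt3a without IL-1β replicate 2 (adjusted p = 0.0508).

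Of 10 proliferation markers, all tested, Mcm2 (−0.24, adjusted p = 5.21e-06) and Mki67 (−0.32, adjusted p = 6.4e-06) fell, and the other 8 did not pass the test. A share of 2 in 10 is close to the 19.8% of all genes tested that fell. Over the 10 markers log2 fold changes ran from −0.32 to −0.02, the last that of Pcna, the sliding clamp of DNA replication (adjusted p = 0.787).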

How the data were processed

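Reads were trimmed by the authors with cutadapt, aligned to mm10 with GENCODE vM20 by STAR (version 2.4.2a in the submitters' processing notes, another version in the methods), and counted per gene with featureCounts. The deposited table holds whole-number counts per gene for 8 samples beside an exon length per gene. The study also names a RUVseq batch correction, and whether the deposited counts precede it is not stated.

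Genes with CPM above 1 in at least 4 samples (14404 of 54658) were tested with edgeR 4.0.16 in R 4.3.3 (TMM, quasi-likelihood test, treatment as the only term), with Benjamini-Hochberg adjustment over all of them. Adjusted p under 0.05 was called a change, and a log2 fold change beyond 1 as well a DEG. No p is given for H19. On simulated data for the same 14404 genes, edgeR recovered 100% of 200 changed genes with 10 false calls. Recovery was not tested separately for small changes such as those of Peg3 and Grb10. Standard errors are the fold change over the root of F. Ratios used log2 of counts plus 0.5 and an exact permutation test over 70 splits. TPM was computed from the counts and lengths. Positions come from GENCODE vM21 (same build), whose exon lengths equalled the listed lengths for all genes looked up.

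The genes and lists were chosen with earlier results of these data known. Named are the 10 genes, up to 6 called imprinted genes per direction by fold change and tested genes of the same clusters. Also named are the most abundant examples of each other list and the nearest 5 profiles to H19 and to Igf2. Named after their values were seen were Ctcf, Cd68, Laptm5, Pdpn, Col3a1 and genes behind small counts. Alternatives were DESeq2 1.42.0, its size factors, total library size, 2 other filters, glmTreat, 1 RUVs factor, a replicate block and leaving out each sample; the length over unshared exon bases was added after seeing the data. The samples were not treated as paired, since deviations from the group means showed no sign of pairing by replicate number. The sources do not say how the replicates were made.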

Additional observations from a re-analysis of the deposited data

Results flagged for a closer look

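Among 164 groups of 4 samples examined, 5 had 1 sample far from the other 3 (Dixon's test at the 95% level), where chance gives about 1 in 20, or 8.2. The log2 ratio of Meg3 to Dlk1 was 0.31 in vehicle replicate 2 and 0.439 to 0.446 in the other vehicle samples. Ctcf was at 70.3 CPM in vehicle replicate 4, with the other vehicle samples at 77.3 to 77.8 CPM. Osbpl5 was at 59.4 CPM in vehicle replicate 1 against 63.0 to 63.2 CPM in the others. Ppp1r1b, the gene nearest in profile to H19, was at 44.2 CPM in vehicle replicate 4 against 39.7 to 40.3 CPM. Stc2, an inhibitor of Pappa that was lower by 0.09 on the log2 scale (adjusted p = 0.0165), was at 298 CPM in IL-1β replicate 4 against 310 CPM in the others, and its call was lost without that sample (adjusted p = 0.0699) or without vehicle replicate 3 (adjusted p = 0.0548).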

How the results depend on the processing

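Igf2, Dlk1, Meg3, Cdkn1c, Plagl1, Mest, Peg3 and Grb10 had an adjusted p under 0.05 and lower levels under each alternative that tests for any change. The log2 fold change of H19 ran from −3.89 to −3.76 without 1 sample and from −3.85 to −3.84 under the others. Of the 9 genes without H19, 8 to 9 were called and 4 to 5 were DEGs without 1 sample, and glmTreat, which tests against the fold limit itself, left 3 DEGs and lost Cdkn1c. DEGs with higher levels numbered 266 with CPM above 1 in all 8 samples, 262 with glmTreat and 635 with no filter, against 412, and DEGs with lower levels numbered 175 with glmTreat and 571 with no filter, against 339. Among the other imprinted genes, DEGs went from 2 to 1 with CPM above 1 in all 8 samples, which left Ascl2 untested, and ranged from 2 to 4 without 1 sample. The 4 without IL-1β replicate 3 added Rian (−1.03) and Tspan32 (−1.19), and without vehicle replicate 3 Rian (−1.002) was added. Signs turned for genes that had not passed the test. For Ctcf they did so with no filter (−0.0030) and with total library size (−0.0016), and for Snhg14 with 1 RUVs factor (−0.0071). Without 1 sample, log2 fold changes ran from −0.031 to 0.021 for Ctcf, from −0.0022 to 0.024 for Igf2r, from −0.13 to 0.035 for Kcnq1ot1, from −0.049 to 0.0068 for Pcna, from −0.17 to 0.081 for Peg12 and from −0.22 to 0.14 for Snhg14; the cause was not tested. Of the 74 genes followed, Ndn, Usp29, Slc22a18, Mbd3 and Tspan32 came to pass in at least 1 alternative. The 4 ratios that differed kept their direction without 1 sample, where 3 against 4 samples cannot reach the threshold.

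The replicate numbers were no sign of pairing: deviations from the group mean correlated at −0.0699 to 0.0416 between samples of the same number and at −0.085 to 0.0909 between others. With the replicate block, 8 of the 9 genes without H19 were called, 5 were DEGs (Dlk1 added at −1.005), and 24 other imprinted genes were called, with Snrpn lost (adjusted p = 0.0674) and Tspan32 gained (adjusted p = 0.0452).

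Depth limits Cdkn1c, Ascl2, Igf2os, Snrpn, Phlda2, Usp29, Peg12, Tspan32, Slc22a18 and Snhg14, counted fewer than 100 times in every sample, and 15 of the 55 other imprinted genes, which did not pass the filter.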
